A study of Mus musculus with 6 samples.

Results

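The genes described here are 9 that build peptide-loaded MHC class I molecules in the mouse: the heavy chains H2-K1 and H2-D1, the light chain B2m, the peptide transporter subunits Tap1 and Tap2, the loading factor Tapbp, and the immunoproteasome subunits Psmb8, Psmb9 and Psmb10. Their probes were all those whose gene symbol, in either symbol column of the deposited expression matrix, was 1 of these 9 names. That gave 19 probes of the 41174 in the matrix. All 19 were well above background on all 6 arrays, counting spots that the scanner flagged as outliers. Each of the 9 genes was therefore among the 21595 genes tested, each gene represented by its brightest probe. Without flagged spots, the brightest probes of Tapbp and Psmb8 were well above background on 2 arrays each, and that of B2m on 3. Medullary thymic epithelial cells (mTECs), which show self antigens to T cells that mature in the thymus, were sorted from MBD1 KO and MBD1 WT mice 30 days of age, and their amplified RNA was profiled on 1-colour Agilent arrays. The KO mice lack Mbd1, whose product is known for binding to methylated CpG in DNA. The sort kept DAPI-negative cells with EPCAM and MHC class II and without CD11c, CD45 or Ly51, so the KO and WT groups differed by label in the Mbd1 genotype only. Each genotype has 3 arrays, left from 4 biological replicates after 1 of each failed the authors' quality control. The labels do not say whether a replicate was 1 mouse or a pool, nor which part of Mbd1 was deleted or in which cells, and p-values therefore measure only the spread between these samples.

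In the class I pathway, proteasomes cut cytosolic proteins into peptides, the Tap1 and Tap2 transporter carries the peptides into the endoplasmic reticulum, and tapasin, the product of Tapbp, holds empty heavy chains with B2m at the transporter until a peptide fits. Psmb8, Psmb9 and Psmb10 replace the standard catalytic subunits of the proteasome in cells of the immune system, in the thymus, and in other cells under interferon gamma. In mTECs this pathway displays peptides to developing CD8 T cells. Most of these genes lie in the MHC region of chromosome 17, while B2m is on chromosome 2 and Psmb10 on chromosome 8.

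Mbd1 and the arrays come before the results, because the matrix columns and the titles of the scanner files do not match. In the matrix, Mbd1 read 5.64, 5.61 and 5.60 in the columns KO_1 to KO_3, against 8.83, 8.60 and 9.0 in WT_1 to WT_3, on the log2 intensity scale. The difference was -3.19 (SE 0.19, limma adjusted p = 5.26e-05). Under the scanner titles the same probe gave processed intensities of 356, 17.2 and 682 on the arrays titled KO, against 20.9, 305 and 15.6 on those titled WT, which is a difference of 1.59 on the log2 scale, higher under the KO titles. By rank over 40929 probes with a single spot, WT_1 equalled the array titled WT 2, WT_2 the array titled KO 1, WT_3 the array titled KO 3, KO_2 the array titled WT 1, and KO_3 the array titled WT 3. KO_1 equalled none of the 6 arrays. The values below follow the matrix column names, and the titled arrays are given at the end. The arrays came from 2 slides, with the columns KO_2, KO_3 and WT_1 on slide 1 and WT_2 and WT_3 on slide 2, and the slide of KO_1 is unknown.

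Promoter sequence was looked up for the 9 genes in RefSeq (GRCm38.p6), as windows of 250 bases before to 50 after each annotated start, 5′ to 3′ on the gene's strand. Windows were found for 8 genes. Those of 5 genes are shown: H2-K1, H2-D1 and B2m for elements through which class I genes are known to be regulated together, Tap1 because its window is largely that of Psmb9, and Psmb8 as an immunoproteasome gene with few of these elements. Capitals mark matches, on either strand, to the NF-kappa B consensus, the interferon-stimulated response element (ISRE) in the form class I promoters carry or in its general form, the core of the cAMP response element (TGACG), the CCAAT box, the GC box (GGGCGG) and the TATA box (TATAAA).
H2-K1, chr17:34000298-34000597, minus strand: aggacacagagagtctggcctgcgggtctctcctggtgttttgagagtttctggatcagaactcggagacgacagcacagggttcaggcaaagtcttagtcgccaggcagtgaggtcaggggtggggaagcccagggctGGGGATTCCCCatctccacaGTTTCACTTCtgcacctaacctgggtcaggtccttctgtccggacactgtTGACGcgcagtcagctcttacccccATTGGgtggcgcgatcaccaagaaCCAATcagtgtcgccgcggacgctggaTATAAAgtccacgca
H2-D1, chr17:35262844-35263143, plus strand: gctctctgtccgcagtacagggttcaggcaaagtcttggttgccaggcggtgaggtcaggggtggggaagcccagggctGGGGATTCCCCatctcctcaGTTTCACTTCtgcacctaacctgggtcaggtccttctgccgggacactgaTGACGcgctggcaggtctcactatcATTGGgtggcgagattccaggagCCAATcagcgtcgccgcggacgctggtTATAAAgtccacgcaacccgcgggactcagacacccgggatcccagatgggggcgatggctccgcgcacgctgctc
B2m, chr2:122147437-122147736, plus strand: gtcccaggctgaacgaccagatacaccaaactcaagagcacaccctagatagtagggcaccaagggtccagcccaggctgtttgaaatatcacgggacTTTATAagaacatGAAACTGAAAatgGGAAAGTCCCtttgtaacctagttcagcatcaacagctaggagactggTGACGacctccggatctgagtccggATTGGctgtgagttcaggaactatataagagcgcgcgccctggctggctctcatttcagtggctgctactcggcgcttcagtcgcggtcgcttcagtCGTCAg
Tap1, chr17:34187306-34187605, plus strand: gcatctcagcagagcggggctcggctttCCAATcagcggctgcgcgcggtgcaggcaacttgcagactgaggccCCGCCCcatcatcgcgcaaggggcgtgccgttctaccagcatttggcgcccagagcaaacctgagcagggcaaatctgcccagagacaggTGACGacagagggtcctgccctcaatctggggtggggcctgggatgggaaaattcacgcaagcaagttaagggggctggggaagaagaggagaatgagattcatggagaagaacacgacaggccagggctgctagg
Psmb8, chr17:34197945-34198244, plus strand: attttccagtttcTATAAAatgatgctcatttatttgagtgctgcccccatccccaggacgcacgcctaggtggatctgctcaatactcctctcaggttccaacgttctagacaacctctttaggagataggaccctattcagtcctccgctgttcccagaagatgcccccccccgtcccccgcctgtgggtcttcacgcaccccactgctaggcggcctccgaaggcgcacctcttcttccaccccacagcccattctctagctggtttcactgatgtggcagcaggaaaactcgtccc

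The H2-K1 and H2-D1 windows had the same order of elements. An NF-kappa B match began 111 bases before the H2-K1 start and 171 bases before the H2-D1 start. The class I ISRE followed it at 91 and 151 bases. A second annotated H2-K1 start, 14 bases away, put these matches at 125 and 105 bases. The TATA box match began 35 bases after the first H2-K1 start but 26 bases before the H2-D1 start. These distances therefore depend on where each start is annotated. The windows matched at 214 of 239 aligned bases, or 89.5%. The NF-kappa B consensus was found in 8.46% of all 32851 windows of this length and the class I ISRE in 0.14%. Both together were in 12 windows of 11 genes, which include the class I-like genes H2-M3, H2-Q4, H2-Q6 and H2-Q7 beside H2-K1 and H2-D1.

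B2m had the NF-kappa B match 126 bases before its start and the general ISRE, found in 3.44% of windows, at 139 bases. Tap1 and Psmb9 are transcribed away from each other. Their annotated starts lie 226 bases apart and their windows share 275 bases, with a GC box (35.7% of windows), a CCAAT box (37.4%) and a cAMP response element core (20.8%) between the starts. The Psmb8 window held only a TATA box match (13.6% of windows), the Tapbp window 2 CCAAT boxes and a GC box, and the Psmb10 window none of the elements. No base was shared between matches to different elements, and a match is a description of letters, not a measured site. The windows of the 8 genes held between 3 CpG sites (Psmb10) and 19 (H2-D1), against a median of 7 over all windows. Methylation was not measured here.

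Transcripts of the class I loading genes lay close together in KO and WT mTECs, and no gene of the 9 passed the test. The test (limma, adjusted p under 0.05 over all 21595 genes) called 0 of the 9, against 0.167% of all genes (0.153% higher and 0.0139% lower in KO), and 0 of the 9 reached an unadjusted p under 0.05, a level that 4.29% of all genes reached. Differences ran between -0.22 for B2m and 0.32 for Tap2 on the log2 scale, with adjusted p = 0.999 for each of the 9. The difference was positive for 6 genes and negative for 3, where 49.3% of all genes were positive, and its median was 0.02, against -0.00 over all genes tested. The 95% intervals of all 9 lay within a 2-fold change in either direction, from 0.630-fold for the lowest bound of B2m to 1.67-fold for the highest bound of Tap2, but with slide as a block 5 of the 9 intervals passed that bound. Differences smaller than these intervals were not resolved with 3 arrays a group, and an exact permutation test of 3 against 3 cannot go below 0.1. In bulk samples, fewer cells of a type and less RNA per cell cannot be told apart.

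**Figure D1:**
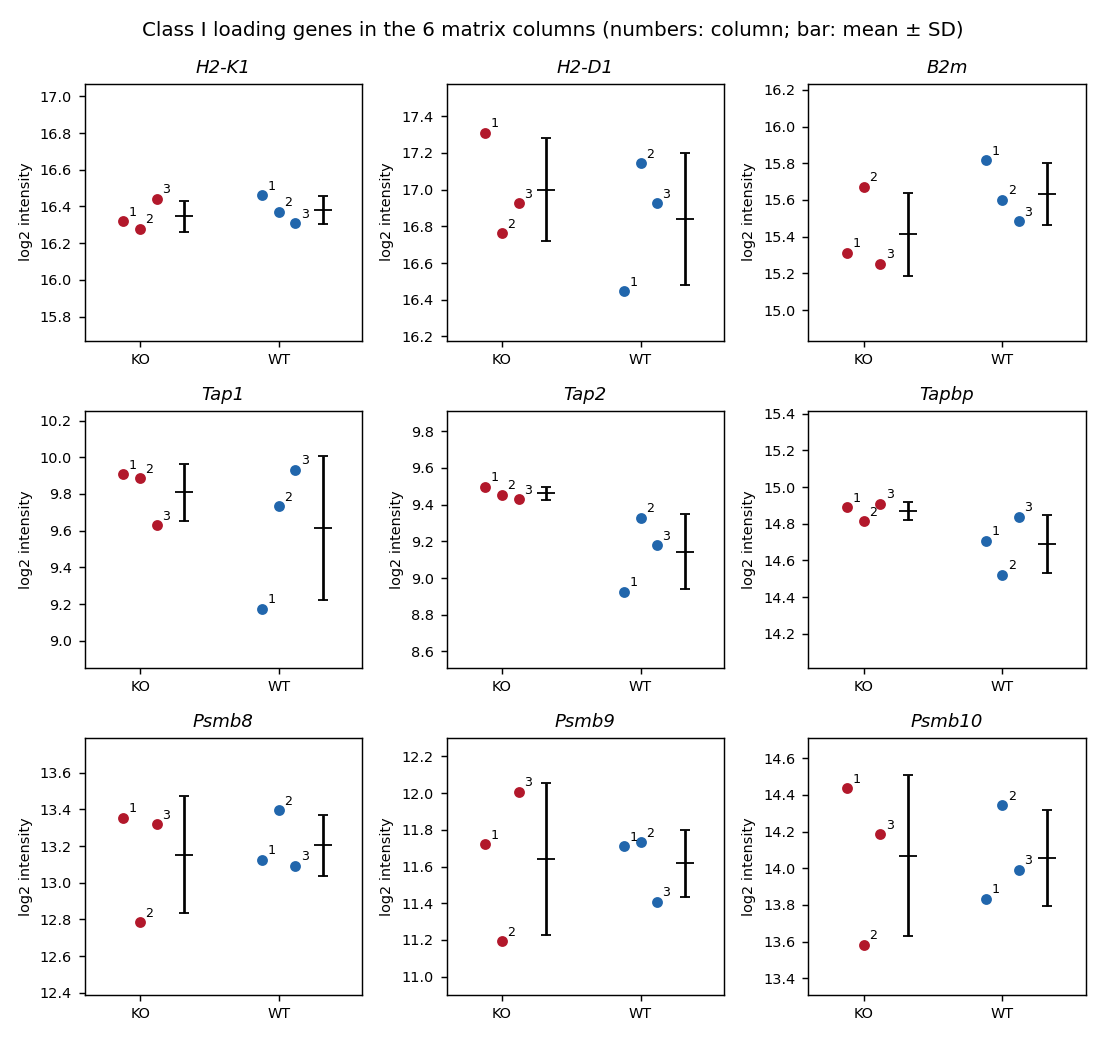
Log2 intensity of the 9 class I loading genes (1 panel each, 1 probe per gene) in the 3 KO columns and the 3 WT columns of the deposited matrix; points are columns numbered as in the matrix, and bars are the mean ± SD of each group. KO and WT points overlap for every gene but Tap2, and KO 2 is the lowest point for Psmb8, Psmb9 and Psmb10.

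H2-K1 encodes the K heavy chain that binds peptide. It read 16.32, 16.28 and 16.44 in KO_1 to KO_3 and 16.46, 16.37 and 16.31 in WT_1 to WT_3, on the log2 intensity scale. The means were 16.35 ± 0.085 in KO and 16.38 ± 0.076 in WT columns (SD, n = 3 each). The difference was -0.03 (SE 0.18, 95% interval -0.43 to 0.37), and the groups overlapped. This probe, spotted 10 times on each array, varied less within a genotype than those representing the other genes. Its pooled SD was 0.080, against 0.361 for Psmb10 and a median of 0.264 over all genes. The low spread is not a trait of every H2-K1 probe, since the other H2-K1 probes had SDs of 0.083 to 0.21 in KO and 0.24 to 0.40 in WT columns.

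H2-D1, the D heavy chain, read 17.31, 16.76 and 16.93 in KO_1 to KO_3 and 16.45, 17.15 and 16.93 in WT_1 to WT_3. KO_1 was the highest column and WT_1 the lowest. On the array equal to WT_1, the scanner flagged the spot of this probe as an outlier. The means were 17.00 ± 0.28 in KO and 16.84 ± 0.36 in WT columns, and the difference was 0.16 (SE 0.24, 95% interval -0.36 to 0.68). Without WT_1 it was -0.04. Both H2-D1 probes carry the symbols H2-L and H2-Q2 beside H2-D1 in the Ensembl annotation of the matrix, so their signal may be shared with those near-identical heavy chains and is uncertain as a level of H2-D1.

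B2m encodes the light chain that every class I molecule needs to reach the cell surface. It read 15.31, 15.67 and 15.25 in KO_1 to KO_3 and 15.82, 15.60 and 15.48 in WT_1 to WT_3. The means were 15.41 ± 0.23 in KO and 15.63 ± 0.17 in WT columns, and the difference was -0.22 (SE 0.20, 95% interval -0.67 to 0.22). The groups overlapped, since KO_2 lay above 2 of the WT columns. On the arrays equal to those columns, WT_2 and WT_3, the scanner flagged the spot of this probe as an outlier. Without WT_1 the difference was -0.13, and without KO_2 it was -0.35.

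Tap1 and Tap2 encode the subunits of the peptide transporter. Tap1 read 9.91, 9.89 and 9.63 in KO_1 to KO_3 and 9.17, 9.73 and 9.93 in WT_1 to WT_3. A single low column, WT_1, set the direction: the difference was 0.20 (SE 0.23, 95% interval -0.31 to 0.70) with it and -0.02 without it.

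Tap2 read 9.50, 9.45 and 9.43 in KO_1 to KO_3 and 8.92, 9.33 and 9.18 in WT_1 to WT_3. It was the only 1 of the 9 genes whose groups did not overlap, where 8.39% of all genes tested did not overlap. The means were 9.46 ± 0.035 in KO and 9.14 ± 0.20 in WT columns, and the difference of 0.32 (SE 0.19, 95% interval -0.10 to 0.74) did not pass the test (unadjusted p = 0.125 from limma, adjusted p = 0.999). Without WT_1, again the lowest column, the difference was 0.21.

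Tapbp encodes tapasin, which tethers class I molecules to the transporter and helps to choose their peptides. It read 14.89, 14.81 and 14.91 in KO_1 to KO_3 and 14.71, 14.52 and 14.84 in WT_1 to WT_3. The KO columns lay close together, and WT_3 reached into their range. On the arrays equal to KO_2, KO_3, WT_1 and WT_3, the scanner flagged the spot of this probe as an outlier. The means were 14.87 ± 0.050 in KO and 14.69 ± 0.16 in WT columns, a difference of 0.18 (SE 0.19, 95% interval -0.23 to 0.59).

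The immunoproteasome subunits had their lowest value in the same column, KO_2. Psmb8 (LMP7) read 13.35, 12.78 and 13.32 in KO_1 to KO_3 and 13.12, 13.39 and 13.09 in WT_1 to WT_3, a difference of -0.05 (SE 0.22, 95% interval -0.53 to 0.43). Psmb9 (LMP2) read 11.72, 11.19 and 12.01 in KO_1 to KO_3 and 11.71, 11.73 and 11.41 in WT_1 to WT_3, a difference of 0.02 (SE 0.24, 95% interval -0.50 to 0.55). In both genes KO_2 lay below the other 5 columns, and KO_2 was the lowest column for 21.2% of all genes tested. On the arrays equal to KO_2, KO_3 and WT_2, the scanner flagged the Psmb8 spot as an outlier.

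Psmb10 (MECL-1) read 14.44, 13.58 and 14.19 in KO_1 to KO_3 and 13.83, 14.34 and 13.99 in WT_1 to WT_3. The means were 14.07 ± 0.44 in KO and 14.06 ± 0.26 in WT columns, the widest spread among the 9 genes, and the difference was 0.01 (SE 0.25, 95% interval -0.54 to 0.56). Without KO_2 the differences were 0.13 for Psmb8, 0.25 for Psmb9 and 0.25 for Psmb10. Their chromosomes differ, since Psmb10 is on chromosome 8 and the other two on chromosome 17.

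**Figure D2:**
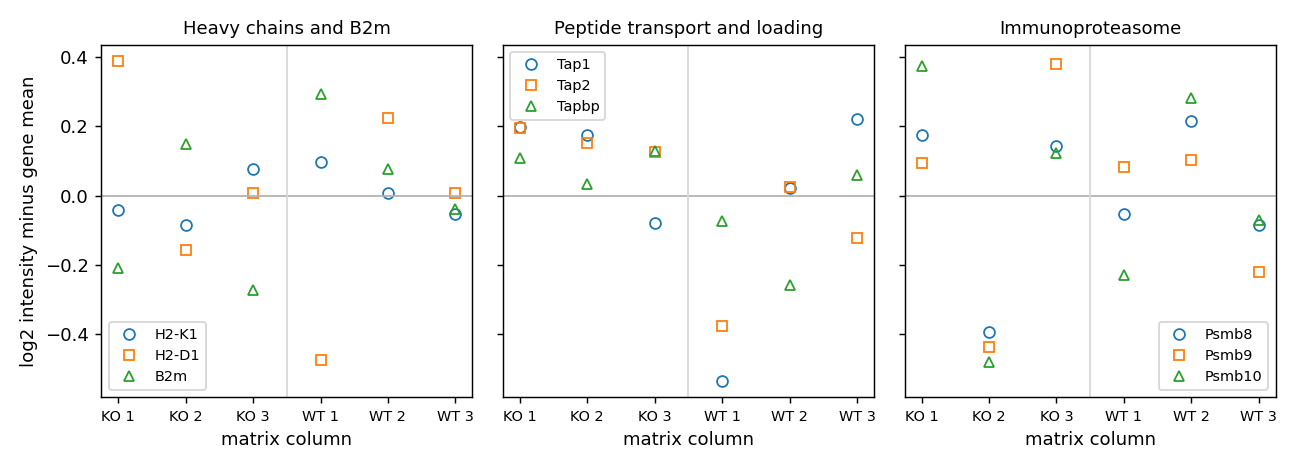
Log2 intensity of each gene minus its own mean over the 6 matrix columns, for the heavy chains and B2m (left), the transport and loading genes (middle) and the immunoproteasome subunits (right); the vertical line separates the KO columns from the WT columns. Psmb8, Psmb9 and Psmb10 lie together near -0.44 in KO 2, and Tap1 and Tap2 are lowest in WT 1.

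Set out by role, the mean centred values showed which columns carried each group. For the 3 immunoproteasome subunits they were 0.21, -0.44 and 0.21 in KO_1 to KO_3 and -0.07, 0.20 and -0.13 in WT_1 to WT_3, a KO minus WT difference of -0.01. For Tap1, Tap2 and Tapbp they were 0.17, 0.12 and 0.06 in the KO columns and -0.33, -0.07 and 0.05 in the WT columns, a difference of 0.23. For H2-K1, H2-D1 and B2m they were 0.05, -0.03 and -0.06 in the KO columns and -0.03, 0.10 and -0.03 in the WT columns, a difference of -0.03. These means describe 3 genes each and were not tested.

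Where a gene had several probes, they did not all give the same sign. Of the 19 probes, 8 differed positively and 11 negatively, none passed the test (0.174% of all 32678 probes kept were called), and 1 reached an unadjusted p under 0.05 (3.94% of all probes did). That probe, A_52_P105594, was annotated to B2m and lay 3802 bases upstream of the nearest other B2m probe on the array design's coordinates. It read 11.48, 11.14 and 11.52 in KO_1 to KO_3 and 10.96, 10.88 and 10.93 in WT_1 to WT_3, so that every KO column was higher. With the Tap2 probe it made 2 of the 19 whose groups did not overlap, against 8.11% of all probes. Its difference was 0.46 (SE 0.19, 95% interval 0.03 to 0.88, unadjusted p = 0.0363 and adjusted p = 0.999 from limma). The unadjusted p from limma was 0.247 with slide as a block, 0.0853 with the replicate block, and 0.0144 (without KO_2) to 0.109 (without KO_1) with 1 column left out, above 0.05 in 4 of those 6 fits.

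The other 2 B2m probes pointed the opposite way. A_51_P129006, spotted 10 times on each array, read 13.61, 14.09 and 13.62 in KO_1 to KO_3 and 14.63, 14.06 and 13.80 in WT_1 to WT_3. Its difference was -0.39 (SE 0.25, unadjusted p = 0.144 from limma). Whether A_52_P105594 lies in an exon or an intron of B2m was not determined, since no genome of the array's build was used here, and its accession is a cDNA clone other than the B2m reference transcript. The signal of this probe is therefore uncertain as a measure of B2m mRNA.

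H2-K1 had 6 probes, with differences from -0.24 to 0.08, none with an interval that excluded 0. The probe A_51_P502456 carries another array symbol, EG630499, and maps elsewhere on chromosome 17, so its difference of -0.11 is uncertain as H2-K1. The second probes of H2-D1, Tapbp and Psmb8 differed by -0.09, -0.08 and -0.17. For H2-D1 and Tapbp these signs are opposite to those of the brighter probes.

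**Figure D3:**
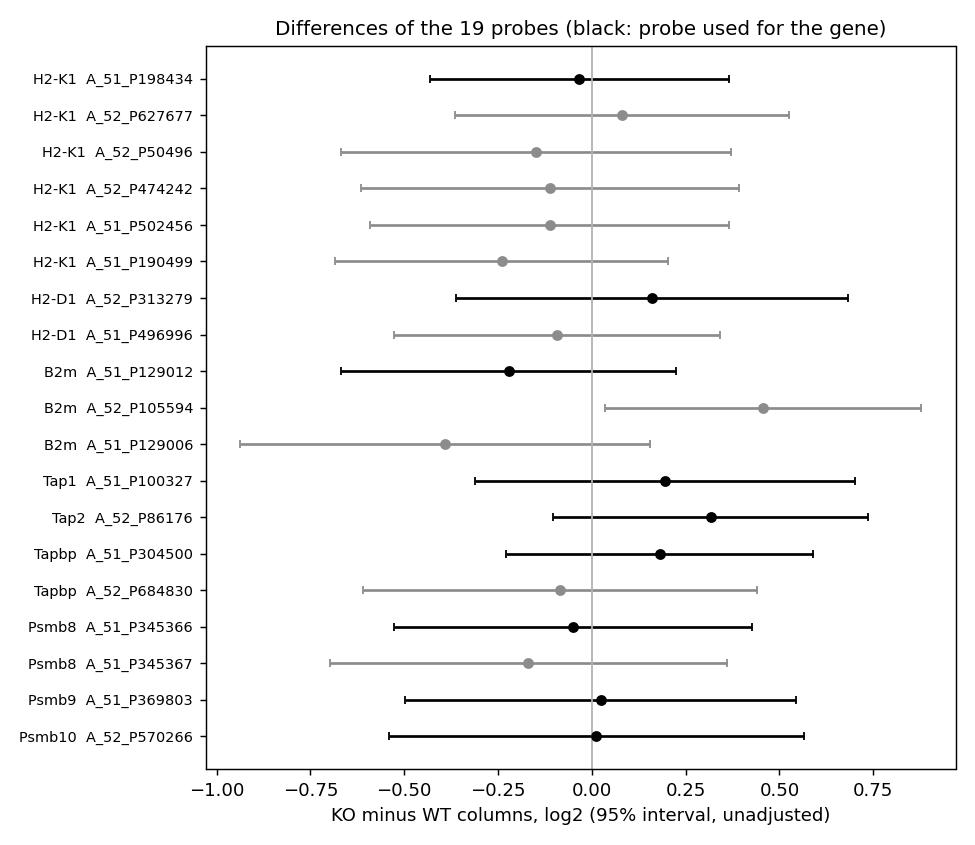
KO minus WT difference in log2 intensity for each of the 19 probes of the class I loading genes, named by gene and probe; points are limma estimates and bars their unadjusted 95% intervals, black for the probe that represents the gene and grey for its other probes. The interval of the B2m probe A_52_P105594 alone excludes 0, and the other 2 B2m probes lie on the negative side.

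The column WT_1 read relatively higher at probes near the 3′ end of a gene than at probes upstream of them. In B2m, WT_1 minus the mean of the other 5 columns was 0.79 at the probe nearest the 3′ end, 0.35 at a probe 121 bases upstream and -0.23 at A_52_P105594. In H2-K1 it was 0.12 and 0.44 at the 2 probes nearest the 3′ end and -0.31, -0.41 and -0.36 at probes 357, 3233 and 3423 bases upstream. These distances are on the array design's genomic coordinates, not along the transcript. In all 5 genes with several probes at their own locus, WT_1 was relatively higher at the probe nearest the 3′ end than at the farthest. For KO_2 this was so in 2 of the 5, B2m and H2-K1, and in H2-K1 the values were nearly equal, at -0.1024 and -0.1027. The part of this pattern in the differences above was not tested.

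Some of the values moved with slide as a block. With slide as a block over the 5 columns whose slide is known, which leaves out KO_1, the KO minus WT differences were 0.58 for Tap1, 0.52 for Tap2, 0.40 for H2-D1, 0.15 for Tapbp and 0.05 for Psmb10. They were -0.07 for Psmb8, -0.10 for H2-K1, -0.11 for Psmb9 and -0.35 for B2m. The 95% intervals of Tap1, Tap2, H2-D1, B2m and Psmb9 then passed a 2-fold change, with Tap1 reaching 1.26 on the log2 scale. The lowest adjusted p among the 9 was 0.787 (limma), and in this fit 0% of all genes were called at the adjusted threshold and 6.65% had an unadjusted p under 0.05. The values within slide 1, KO_2 and KO_3 against the single column WT_1, were the same, since slide 2 holds no KO column. For the same reason the slide difference is that of WT_2 and WT_3 against WT_1. Slide therefore cannot be told apart from the column WT_1 itself. Slide 2 minus slide 1 was 0.66 for Tap1 and 0.59 for H2-D1, and no gene on the array was called for slide (0%, with 7.68% at an unadjusted p under 0.05).

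Genes related to the pathway by role, regulation or position did not pass the test either. Of the 98 genes measured in 7 lists of related genes none was called, where 0.167% of all genes tested were called. Beside each list's median stands the -0.00 of all genes. Among the standard catalytic subunits that the immunoproteasome replaces, with the thymus-specific Psmb11, 2 of 4 differences were positive and the median was -0.06. Psmb11, which cortical thymic epithelium uses, differed by 0.39 (SE 0.29), Psmb7 by -0.32 and Psmb5 by -0.15. KO_2 was the lowest column for 2 of these 4 genes, Psmb5 and Psmb6. Of 16 other proteasome subunits, activators and assembly factors, 6 were positive and 10 negative with a median of -0.05, and Psme4, Psma6 and Psma7 had the smallest p with -0.32, -0.29 and 0.28.

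The chaperones and trimming enzymes that serve class I molecules in the endoplasmic reticulum differed little in either direction. Of 9 genes, 4 were positive and 5 negative, with a median of -0.01 and a range of -0.12 to 0.13. Hspa5 (BiP), the general chaperone, differed by -0.12. Calr, the calreticulin of the loading complex, differed by 0.09, and Erap1, which trims peptides, by -0.09.

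Of the 21 class I-like heavy chains measured of 26 listed, 2 differences were positive (H2-T10 and Hfe, named after their values were seen) and 19 negative, with a median of -0.14. None was called, and 3 had an unadjusted p under 0.05 (4.29% of all genes did). Between the groups 3 did not overlap, where 8.39% of all genes did not overlap in either direction and 4.1% with KO lower. Mr1, which presents vitamin B metabolites to T cells, read 9.10, 9.19 and 8.71 in KO_1 to KO_3 and 9.45, 9.38 and 9.55 in WT_1 to WT_3. All KO columns were lower, and the difference of -0.46 (SE 0.20) had an unadjusted p of 0.0408 and an adjusted p of 0.999 from limma.

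Cd1d1, which presents lipids to NKT cells, read 8.35, 8.15 and 8.24 in KO_1 to KO_3 and 8.75, 8.55 and 8.68 in WT_1 to WT_3. Its KO columns were again all lower, with a difference of -0.41 (SE 0.18, unadjusted p = 0.0454 and adjusted p = 0.999 from limma). Azgp1, a soluble class I-like protein, differed by -0.68 (SE 0.29, unadjusted p = 0.0385 from limma) and overlapped. H2-M9, the other gene without overlap, was named after its values were seen and differed by -0.33. Probes of near-identical genes in this family may share signal, so the values were not taken as independent. Which probes match several genes was not checked here.

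The regulators of class I transcription, 18 measured of 19 listed, had 13 positive and 5 negative differences and a median of 0.09. Nlrc5, the class I transactivator, had no probe under that name. Rfxap, a subunit of the factor that binds MHC promoters, differed by -0.27, and Socs1, an inhibitor of interferon signalling, by 0.26. Of 15 interferon-inducible genes, 6 were positive and 9 negative with a median of -0.09. Iigp1, an interferon-induced GTPase, read 8.35, 8.85 and 8.58 in KO_1 to KO_3 and 9.42, 9.12 and 9.11 in WT_1 to WT_3. It was lower in every KO column, by -0.63 (SE 0.21, unadjusted p = 0.0112, adjusted p = 0.744 from limma). Gbp2 and Oas1a differed by -0.29 and -0.28 with overlapping groups.

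Of 15 other genes of the MHC region, class II genes among them, 7 were positive and 8 negative with a median of -0.04. Daxx differed by 0.41 (SE 0.22) with overlapping groups, Ring1 by 0.25 (SE 0.18) without overlap, and Rgl2 by 0.19.

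**Figure D4:**
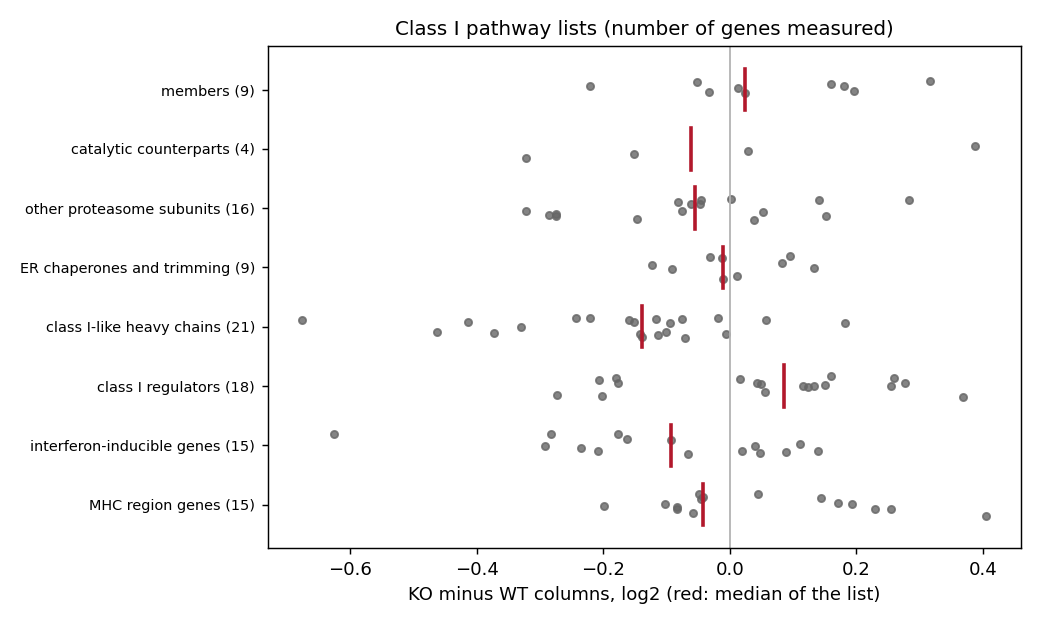
KO minus WT difference in log2 intensity (1 point per gene) for the 9 class I loading genes, shown as members, and for 7 lists of related genes, with the number of genes measured in brackets; red bars are list medians. Medians lie between -0.14 for the class I-like heavy chains and 0.09 for the regulators, and no point passed the test.

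The sorted cells carried mTEC markers in both groups, and 3 marker lists of other cells summed higher in every KO column than in any WT column. Aire, the autoimmune regulator that defines mature mTECs, read 11.25, 10.50 and 11.44 in KO_1 to KO_3 and 10.94, 10.52 and 10.85 in WT_1 to WT_3, with overlapping groups. Intensities of a marker list are given here summed on the linear scale, so the brightest genes of a list weigh most. The 10 measured mTEC markers summed to 103614 to 110995 in KO columns and 104534 to 118447 in WT columns, which overlap. The 8 cortical epithelial markers summed to 38057 to 49402 in KO and 29584 to 35410 in WT columns, with 7 of 8 differences positive and none called. Most of each of these sums came from the brightest marker, Ccl25. It read 14.78, 15.26 and 15.07 in KO_1 to KO_3 and 14.70, 14.74 and 14.38 in WT_1 to WT_3. The 11 thymocyte markers summed to 5654 to 6915 in KO and 3228 to 4300 in WT columns, with 10 positive and none called.

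The 9 B cell markers summed to 8566 to 27807 in KO and 3119 to 5349 in WT columns, with 7 positive and only Igh-6, an immunoglobulin heavy chain, called at 3.39 higher on the log2 scale. The 10 markers of dendritic cells and macrophages overlapped, at 29660 to 32461 in KO and 30499 to 33239 in WT columns. Ptprc, the CD45 that the sort excluded, stood at 202 to 329 in KO and 229 to 296 in WT columns. Rag2 and Siglech were too dim to be kept, and Ccl21a had no probe under that name. Leukocytes are known to express class I strongly, and the part of these sums in the values above was not tested.

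Under the titles of the scanner files, no class I loading gene passed the test. Each titled group holds arrays of high and of low Mbd1 intensity, so that fit cannot test the Mbd1 genotype. There 6 of the 9 could be fitted on log2 processed intensity scaled to each array's 75th percentile, because the representative probe of B2m was flagged as an outlier on all 3 arrays titled KO, and those of Tapbp and Psmb8 on 4 of the 6 arrays. H2-D1 was fitted on 4 arrays and Psmb9 on 5. KO minus WT differences by title ran between -0.08 and 0.34, against a median shift of 0.12 over all genes, and the smallest unadjusted p was 0.293 (limma). In this fit 0% of all genes were called and 4.24% had an unadjusted p under 0.05. By title, slide and genotype cannot be told apart.

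Genes outside the pathway whose 6 column values were most like the mean profile of the 9 genes were Lrfn4 (Pearson r = 0.998), Stk22s1 (0.995), an unnamed probe, A_52_P339726 (0.994), Krt86 (0.991) and Atrip (0.991). They were the 5 highest of 20576 genes that vary at least as much as the profile. The points are 6 columns that share their arrays with the members, and without the columns farthest from the median, WT_1 and KO_2, the correlations were between 0.974 and 0.996. They are given as a description of likeness only.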

How the data were processed

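RNA of sorted mTECs was measured on 6 arrays of 1 colour. The deposited scanner files hold intensity values per spot from Agilent Feature Extraction 10.7.3.1 per the file headers (10.6 per the submitters' processing notes), background-subtracted within the array. The authors' deposited matrix holds log2 values in 6 columns whose medians lie between 7.13 and 7.14 and whose maxima are equal, which quantile normalization would leave, and the tool is not given in the sources used here. It also holds the authors' p-values, a fold ratio and a log-odds score, of which none is printed here. Differences of dim genes are understated where no background was subtracted.

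Each array has 43379 non-control spots of 41174 probes, 73.5% to 81.3% well above background and 0 saturated, and the number of arrays limits the precision. Probes that passed the scanner's test for background on 3 or more of the 6 arrays, under any title, were kept (32678). Probes were named through Entrez ID (32815), accession (62), the file's symbol (2717) or the rule for the 9 genes (19), and 5561 had no symbol. The kept probe of highest mean represents a gene.

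Matrix columns were grouped by their names and fitted in R 4.3.3 with limma 3.58.1 (lmFit, eBayes), with Benjamini-Hochberg adjustment over all genes (threshold 0.05), and the code was tested on simulated data. Scanner files were fitted separately under their titles, as log2 of processed intensity (floor 1) minus the 75th percentile, spots flagged as outliers left out. Of the related lists, the up to 3 members of smallest p are named (1 gene that this rule names is not reported here), and H2-M3, H2-Q4, H2-Q6 and H2-Q7 beside them for their promoter windows. The genes, lists and motif letters were chosen with earlier results of these data known. The alternatives were columns left out, the replicate and slide blocks, other filters and probe rules, another moderation of the spread, and the titles with another background correction (normexp, offset 50) on median signals, since the files hold no mean signal. Matrix coordinates have no stated build, and only chromosomes and distances between probes are printed from them.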

Additional observations from a re-analysis of the deposited data

How the results depend on the processing

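The count of class I loading genes called was 0 under every alternative run on the matrix columns, and 0 without each column in turn. It was also 0 under the scanner titles, whose groups mix arrays of high and low Mbd1 and so cannot test the genotype. The lowest adjusted p of a KO minus WT difference of the 9 genes, each by its representing probe, was 0.753 (limma). For the slide term the lowest adjusted p was 0.636 (limma). Over all genes, 36 were called, 33 of them higher in KO. The count was 19 with no filter on dim probes, 57 with every probe on its own, 17 (without WT_2) to 56 (without KO_3) with 1 column left out, 0 with slide as a block (1437 genes at an unadjusted p under 0.05), 0 within slide 1 (551), 0 for the slide term itself (1659) and 0 under the titles (879). The slide term and the filter that counts outlier spots as not detected were chosen after seeing the data.

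The numbers in the column names do not pair the samples: the correlations of deviations of same-numbered columns were -0.28, -0.17 and -0.33. The replicate block moved the count of genes called to 59 and called 0 of the 9 genes.

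Mbd1 differed by -3.30 to -3.10 with 1 column left out. With the filter on all 6 arrays another Mbd1 probe represents the gene, at -0.98 (adjusted p = 0.116, limma). With slide as a block it was -3.22 (adjusted p = 0.0725), and within slide 1 also -3.22 (adjusted p = 0.251), on 5 and 3 columns. Under the titles it was 1.59.

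The sign turned under some alternatives for 8 of the 9 genes, B2m excepted, and none of these differences was called. For Tap2 it turned only under the titles, a fit that cannot test the genotype. B2m could not be fitted under the titles. With 1 column left out, the ranges were -0.081 to 0.0067 for H2-K1, -0.036 to 0.31 for H2-D1, -0.024 to 0.36 for Tap1, -0.15 to 0.13 for Psmb8, -0.16 to 0.25 for Psmb9 and -0.17 to 0.25 for Psmb10. Under the titles Tap2 was -0.017 and Psmb9 -0.082. Psmb9 was -0.11 with slide as a block and -0.11 within slide 1. Tapbp was -0.085 where outlier spots count as not detected, because its other probe then represents it. The cause of the other turns was not tested.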
